A study of Mus musculus with 3 samples.

Results

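TAM receptors, MET and their ligands are described here in SB28, a mouse glioblastoma model line. The 8 genes were chosen by symbol, not by a rule on their values, although earlier results of these data were known. They are the TAM receptors Axl, Tyro3 and Mertk, the TAM ligands Gas6 and Pros1, the receptors Met and Mst1r, and the MET ligand Hgf. All 8 were found among the 24421 gene lines of the count tables. The series holds 1 group of 3 RNA-seq libraries, replicates 1, 2 and 3, all SB28 on the C57BL/6 background, with brain given as source. The labels give no control, treatment, culture condition or age, and do not say whether the replicates came from separate cultures, so every SD measures only the spread between these libraries, which may be technical. SB28 is a single line, and without a control group the comparisons possible are between genes and between replicate libraries.

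The TAM receptors are receptor tyrosine kinases that do not bind phosphatidylserine, the lipid that dying cells and some tumour cells expose, by themselves. GAS6 and protein S, the product of Pros1, bridge the lipid and the receptor after vitamin K-dependent carboxylation. In macrophages and microglia the receptors serve the uptake of dying cells and dampen inflammatory signals, and in gliomas AXL and MET are studied as drivers of invasion and survival. MET is the receptor of hepatocyte growth factor, HGF, and MST1R, also named RON, is its close relative and the receptor of macrophage-stimulating protein, MST1.

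Replicates 1, 2 and 3 held 36019009, 28990128 and 32632858 counts in genes. Levels are given as counts per 1000000 gene counts (CPM), or, where genes are compared with each other, as CPM per kb of union exon length, as mean ± SD (n = 3). Detection required at least 1 CPM in each of the 3 libraries, which 46.6% of all genes reached. Replicate 3 stood apart. A chi-square test of the counts against counting noise, adjusted over all genes tested, called 2.01% of genes between replicates 1 and 2, against 64% between replicates 1 and 3 and 62.9% between replicates 2 and 3. Reads that the counting assigned to no feature made up 6.54% of the reads in replicate 3, against 5.19% and 5.27% in replicates 1 and 2. Of 6 markers of glioma and neural stem cells 4 were detected, led by Vim, Cd44 and Nes, while Gfap and Olig2 had 0 counts. None of 10 macrophage and microglia markers was detected, their summed level was 0.414 to 0.95 CPM, and 4 of them, Aif1, Adgre1, Tyrobp and C1qa, had 0 counts. None of the 5 oligodendrocyte markers (Mag at 0 counts) and 4 hepatocyte markers (Alb, Ttr and Serpina1a at 0 counts) was detected. Of 6 neuron markers 1 was detected (Tubb3, with Rbfox3 at 0 counts), and of 7 endothelial markers 2 were (Cdh5 and Kdr, with Cldn5 and Tie1 at 0 counts). Cdh5 had a mean of 351 CPM and Kdr of 1.6 CPM, and Pecam1 had 6 counts in all. Of 6 fibroblast and pericyte markers 4 were detected, led by the collagen genes Col1a1 and Col3a1 and the growth factor receptor Pdgfrb. Dcn (1.30, 1.90 and 0.276 CPM in replicates 1, 2 and 3) and Lum (3 counts in all) were not detected. The list had a summed level of 2743, 2640 and 1445 CPM in replicates 1, 2 and 3.

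Axl was by far the most abundant of the TAM receptors. Axl encodes the receptor that binds GAS6 with the highest affinity in the family, and lies at chr7:25757273-25788705 on the minus strand, with 19 exon blocks (GRCm38, GENCODE M21 annotation). It had 884, 870.0 and 1013 CPM in replicates 1, 2 and 3. The value of replicate 3 was the highest, and replicates 1 and 2 lay close together. Tyro3, a receptor prominent in neurons of the healthy brain, lies at chr2:119797733-119818104 and had 41.8, 42.9 and 36.5 CPM. Mertk, the receptor that resident macrophages and microglia use for clearance, lies at chr2:128698956-128802894 and had 14.05, 13.04 and 10.7 CPM. Both were lowest in replicate 3, opposite to Axl. All 3 receptors were detected in all libraries, while none of the macrophage markers was. In bulk RNA, fewer expressing cells and less RNA per cell cannot be told apart.

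Per kb of exon, Axl stood at 183 ± 15.6, Tyro3 at 6.52 ± 0.550 and Mertk at 2.90 ± 0.397 CPM. Axl accounted for 95.1% ± 0.82 of the summed CPM per kb of the 3 TAM receptors, Tyro3 for 3.41% ± 0.524 and Mertk for 1.52% ± 0.304 (SD, n = 3). Axl lay 28.1-fold above Tyro3 (range over libraries 24.98 to 34.1) and 63.3-fold above Mertk (54.1 to 81.5). Tyro3 lay 2.25-fold above Mertk (2.08 to 2.39). Each of these ratios exceeded the spread between replicates, which here means that every library lay on one side of equality and the mean log2 ratio exceeded 2 SD. The Axl level ranked 200 among the 11318 detected genes with a known length, Tyro3 6137 and Mertk 8487. The genes whose CPM per kb came nearest to Axl over the 3 libraries were Stip1, Tubb6, Hdgf and Hnrnpab, measured by the largest absolute log2 difference in any library (0.0283 to 0.0565).

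**Figure D1:**
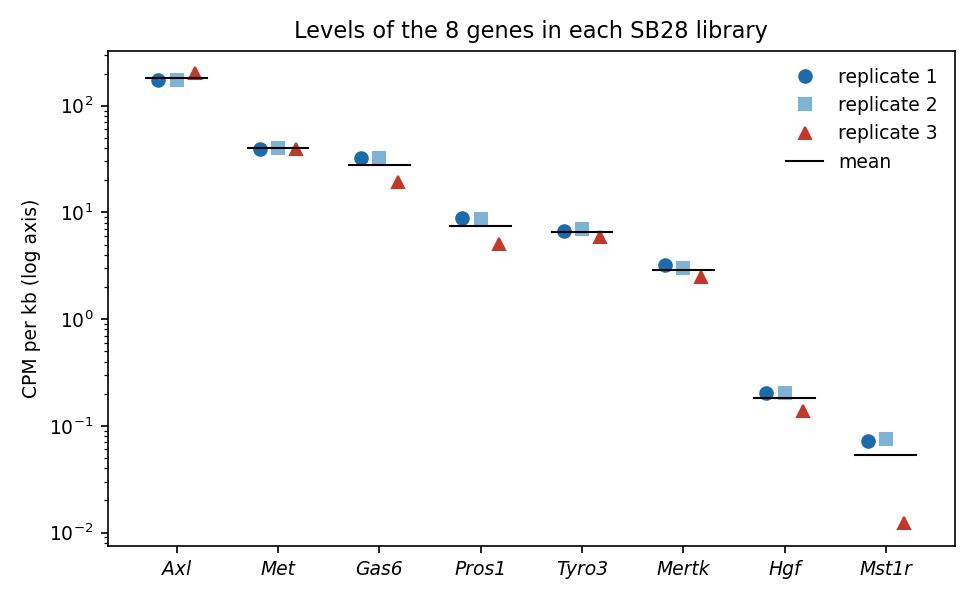
Levels of the 8 genes in CPM per kb of union exon length, on a log axis, with 1 symbol for each of the 3 SB28 libraries and a bar for their mean. Axl lies above all other members at 173 to 201 CPM per kb, and Hgf and Mst1r reach at most 0.205 CPM per kb in any library.

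Both TAM ligands were present, and both were lower in replicate 3 than in the other libraries. Gas6, at chr8:13465374-13494490 on the minus strand, encodes the ligand of all 3 TAM receptors. It had 81.8, 83.03 and 48.7 CPM in replicates 1, 2 and 3. Pros1, at chr16:62854307-62929346, encodes protein S, an anticoagulant in plasma that also activates TYRO3 and MERTK. It had 36.5, 35.3 and 20.5 CPM. For each ligand, replicates 1 and 2 lay close together and replicate 3 lay apart. Scaled for library composition with trimmed mean of M values (TMM) factors, replicate 3 held 0.599 times the Gas6 level of replicate 1 and 0.591 times that of replicate 2. For Pros1 the values were 0.565 and 0.584 times. The adjusted p of the chi-square test between the 3 libraries was 8.65e-73 for Gas6 and 7.91e-36 for Pros1. Between replicates 1 and 2 alone it was 0.921 for Gas6 and 0.821 for Pros1, so both calls rest on replicate 3. The fibroblast and pericyte markers were also lowest there (all 5 tested were called and lowest in replicate 3, against 31.5% of all tested genes), and their part in the ligand values was not tested.

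Per kb, Gas6 stood at 27.9 ± 7.64 CPM and Pros1 at 7.52 ± 2.18 CPM. Gas6 lay 3.73-fold above Pros1, with a narrow range over libraries (3.60 to 3.82). The ratio was 2.32-fold when length was not corrected for. Gas6 therefore held 78.9% ± 0.515 of the summed CPM per kb of the 2 ligands (SD, n = 3). The receptor Axl lay 6.73-fold above its ligand Gas6, with log2 ratios of 2.45, 2.41 and 3.40 in replicates 1, 2 and 3. The fold was 13.3-fold without length correction, and larger than the spread between replicates either way. Gas6 shares 34 bases of exon with Tmem255b on the opposite strand, and Tmem255b had 0 counts in all libraries.

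The windows of 250 bases before the RefSeq start sites (GRCm38.p6) of Gas6, Pros1 and Axl are shown because the 2 ligands were lowest, and Axl highest, in the same library. They lie at chr8:13494536-13494785 on the minus strand for Gas6, at chr16:62854057-62854306 on the plus strand for Pros1 and at chr7:25788734-25788983 on the minus strand for Axl. For Gas6 and Axl the RefSeq start lies outside the GENCODE M21 gene bounds given above, while for Pros1 the starts coincide. Capitals mark the GC box GGGCGG, the AP-1 motif TGANTCA and the TEAD motif GGAATG, each searched on both strands.
Gas6: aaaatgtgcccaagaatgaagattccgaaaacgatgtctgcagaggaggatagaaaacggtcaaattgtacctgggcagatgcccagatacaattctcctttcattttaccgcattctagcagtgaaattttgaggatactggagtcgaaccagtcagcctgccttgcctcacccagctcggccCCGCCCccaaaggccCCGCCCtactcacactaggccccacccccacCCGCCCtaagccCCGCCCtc
Pros1: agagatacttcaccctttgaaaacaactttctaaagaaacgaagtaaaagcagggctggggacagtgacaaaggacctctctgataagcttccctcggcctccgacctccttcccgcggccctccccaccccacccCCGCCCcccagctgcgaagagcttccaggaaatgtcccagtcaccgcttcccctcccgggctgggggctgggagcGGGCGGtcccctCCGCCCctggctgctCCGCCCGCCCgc
Axl: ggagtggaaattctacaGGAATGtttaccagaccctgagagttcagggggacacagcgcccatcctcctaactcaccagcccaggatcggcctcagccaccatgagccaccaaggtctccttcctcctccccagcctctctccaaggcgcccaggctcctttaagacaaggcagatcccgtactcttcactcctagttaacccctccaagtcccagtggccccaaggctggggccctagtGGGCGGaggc

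The Gas6 window held 4 GC boxes and the Pros1 window 5, of which the last 2 overlap, against 1 in the Axl window. The windows of Tyro3 and Mertk, which were also called and lowest in replicate 3, held 3 each. So did that of Met, which was not called, and these windows are not printed. Both Hgf windows held 0, and the Mst1r windows 2 and 0. At least 1 GC box was present in 32.7% of all 32851 windows of this length, and the share with more boxes was not counted. The Axl window alone held a TEAD motif, which 12.6% of all windows hold. None of the 3 printed windows held the AP-1 motif, found in 6.75% of all windows, and the Met window held 1. G and C made up 54.8% of the Gas6 window, 64.4% of the Pros1 window and 60.0% of the Axl window, against a median of 52.4% over all windows. A match describes the letters and shows no binding, and a link between motifs and library values was not tested.

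Met was abundant and was the steadiest of the members, while its relative Mst1r and its ligand Hgf were near or below the detection threshold. Met, at chr6:17463800-17573980, had 304, 309 and 303 CPM in replicates 1, 2 and 3. The 3 libraries differed by a coefficient of variation of 0.983%, and 1.4% of the 12737 genes tested had a lower one. The chi-square test between libraries did not call it (adjusted p = 0.643). Mst1r, at chr9:107906873-107920383, had 13, 11 and 2 counts. These correspond to 0.361 CPM (95% Clopper-Pearson interval 0.192 to 0.617), 0.379 CPM (0.189 to 0.679) and 0.0613 CPM (0.00742 to 0.221). The intervals cover counting error only, since reads copied by PCR and not tagged per molecule are not independent. Mst1r lay below 1 CPM in all libraries, and its value in replicate 3 rests on 2 counts.

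Hgf, at chr5:16553495-16620152, had 53, 42 and 32 counts. Its level was 1.47 CPM (1.1 to 1.92) in replicate 1, 1.45 CPM (1.04 to 1.96) in replicate 2 and 0.981 CPM (0.671 to 1.38) in replicate 3. Hgf thus passed 1 CPM in 2 libraries and fell just short in the third, where the interval includes 1 CPM. The chi-square test did not call a difference between libraries (adjusted p = 0.2). Hgf shares 484 bases of exon with Gm43489 on the same strand, a gene model without a line in the count tables. Per kb, Met stood at 39.8 ± 0.391 CPM, Hgf at 0.181 ± 0.0386 CPM and Mst1r at 0.0534 ± 0.0357 CPM. Met lay 221-fold above Hgf (191 to 285) and 885-fold above Mst1r (508 to 2583), both larger than the spread between replicates. The first ratio was 120-fold with the longest transcript in place of the union of exons, since the Hgf union exon length of 7186 bases exceeds its longest transcript of 3468 bases. The second was 518-fold without replicate 3 and 511-fold with a pseudocount of 5 counts in place of 0.5.

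In order of CPM per kb the members ran Axl, Met, Gas6, Pros1, Tyro3, Mertk, Hgf and Mst1r. Axl lay 4.60-fold above Met (4.30 to 5.09), 3.01-fold without length correction. Met and Gas6 did not differ beyond their spread (1.46-fold, 1.23 to 2.07). They did so without length correction (4.41-fold) and without replicate 3 (1.23-fold). Pros1 and Tyro3 did not differ beyond their spread (1.12-fold, 0.850 to 1.32), and their order turned in replicate 3. Pros1 over Tyro3 was 0.738-fold without length correction and 0.997-fold with the longest transcript, and 1.28-fold, beyond the spread, without replicate 3. Hgf and Mst1r did not differ beyond their spread (4.01-fold, 2.58 to 9.06), but did so with the longest transcript (7.83-fold), without length correction (5.75-fold), with a pseudocount of 5 counts (2.57-fold) and without replicate 3 (2.67-fold). Gas6 and Pros1, and Tyro3 and Mertk, differed beyond their spread. So did Mertk and Hgf (16.04-fold, 14.8 to 17.8), and the ratio was 9.68-fold without length correction and 7.80-fold with the longest transcript. The exact two-sided sign-flip permutation p was 0.25 for all 8 pairs fixed for this comparison, and 0.25 after Benjamini-Hochberg adjustment, the smallest that 3 libraries allow.

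**Figure D2:**
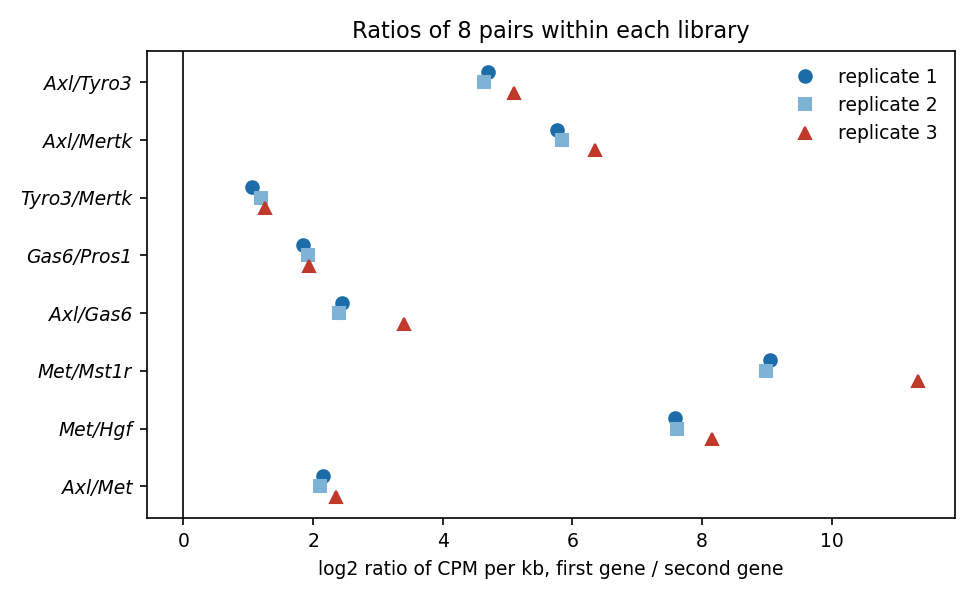
Log2 ratio of CPM per kb, first gene over second gene, for 8 pairs in each of the 3 libraries. All points lie right of 0, and replicate 3 has the highest ratio in each pair, with Axl over Gas6 at 3.40 in replicate 3 against 2.45 and 2.41 in replicates 1 and 2.

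Among the 58 receptor tyrosine kinases of the mouse, Axl was the most abundant per kb, and Met ranked 4. Of the 58, 33 were detected (56.9%, against 46.6% of all genes) and 8 had 0 counts in all libraries. Axl made up 31.9% of their summed CPM per kb and Met 6.92%. The next kinases by level were the collagen receptor Ddr2 (48.7 ± 4.85 CPM per kb), the Wnt receptor Ryk (40.2 ± 1.2), Met, the fibroblast growth factor receptor Fgfr1 (37.3 ± 3.95) and the ephrin receptor Epha2 (34.2 ± 3.20). The lowest Axl value, 173 CPM per kb, lay above the highest Ddr2 value, 52.2 CPM per kb. Axl ranked 1 in each library, with the longest transcript and without length correction. Met overlapped with Ryk and Fgfr1 and ranked 5, 4 and 3 in replicates 1, 2 and 3. Tyro3 ranked 16, below Flt4 (7.85 ± 2.54 CPM per kb) and Ror2 (7.14 ± 0.492) and above Erbb2 (6.42 ± 0.480) and Flt1 (5.78 ± 2.45). Mertk ranked 24, below Ephb3 (4.31 ± 0.168) and Egfr (3.93 ± 0.472) and above the kinases Lmtk3 (2.68 ± 0.168) and Aatk (1.74 ± 0.348). Mst1r ranked 38.

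**Figure D3:**
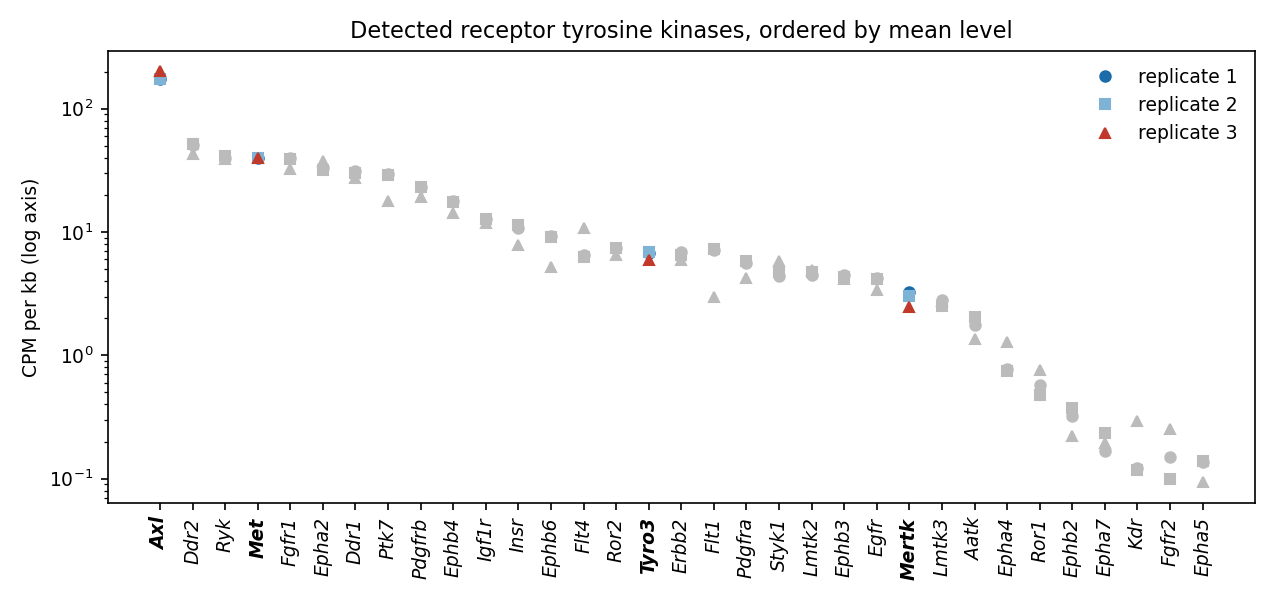
CPM per kb (log axis) of the 33 detected receptor tyrosine kinases in each of the 3 libraries, ordered by mean level, with Axl, Met, Tyro3 and Mertk in colour and in bold and the others in grey, with the same symbols. Axl stands clear of the rest in all 3 libraries, Met lies within the group from Ddr2 to Epha2, and Tyro3 and Mertk lie at ranks 16 and 24.

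Between libraries, 5 of the 7 members tested were called. Mst1r was not tested, since its mean count lay under the minimum of 10. The background was high: 65.7% of all 12737 genes tested were called, so the share among the members is close to that of all genes. Axl was called and highest in replicate 3, as 33.1% of all tested genes were. Its replicate 3 level was 1.15 times that of replicate 1 and 1.17 times that of replicate 2 (adjusted p = 6e-102). The rise was not unusual in size: 28.6% of tested genes rose more in replicate 3 relative to replicate 1. Tyro3, Mertk, Gas6 and Pros1 were called and lowest in replicate 3, as 31.5% of all tested genes were. For Tyro3, replicate 3 held 0.878 and 0.858 times the levels of replicates 1 and 2 (adjusted p = 0.000473), and for Mertk 0.765 and 0.826 times (adjusted p = 0.00105). A larger fall in replicate 3 relative to replicate 1 was seen in 8.16% of tested genes for Gas6, 6.91% for Pros1, 18.1% for Mertk and 31.1% for Tyro3. Without replicate 3 none of the members was called: the adjusted p between replicates 1 and 2 was 0.331 for Axl, 0.882 for Tyro3 and 0.718 for Mertk, and 1 of 8 members had an unadjusted p under 0.05. The test compares libraries with counting noise and says nothing about conditions.

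**Figure D4:**
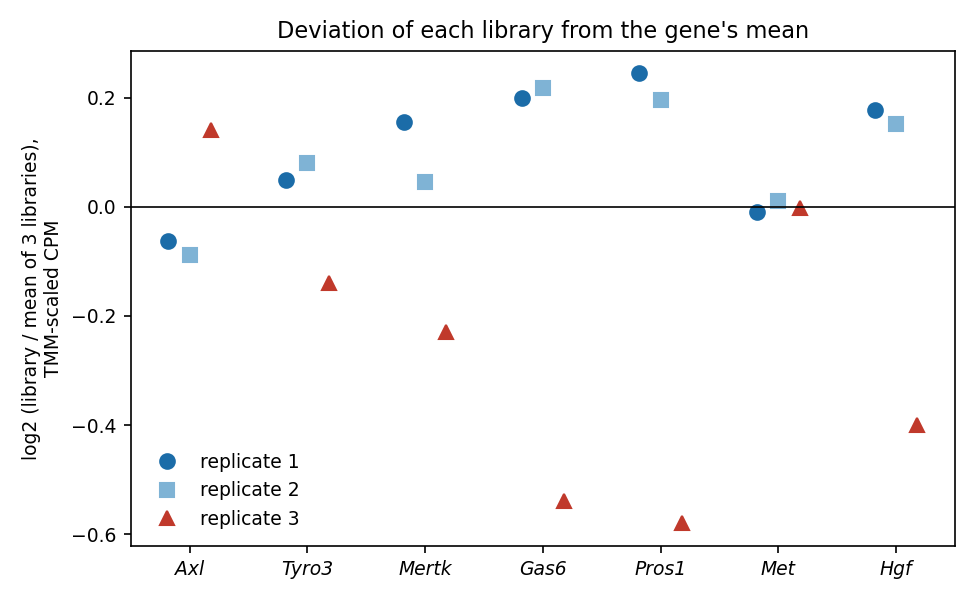
Deviation of each library from the gene's mean, as log2 of TMM-scaled CPM over the mean of the 3 libraries, for the 7 members tested. Replicate 3 lies at -0.54 for Gas6 and -0.58 for Pros1 and at 0.14 for Axl, while the 3 libraries lie between -0.01 and 0.01 for Met.

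Counts of called genes in the lists that follow are read against all genes tested, of which 65.7% were called, 31.5% lowest and 33.1% highest in replicate 3. Of 4 further ligands, Lgals3, which encodes galectin-3, a secreted lectin reported to bind MERTK, was detected at 236, 229 and 415 CPM in replicates 1, 2 and 3. Lgals3 was called and highest in replicate 3, opposite to Gas6 and Pros1. Tulp1 and Tub, reported to bridge dying cells to TAM receptors, had 24 and 2 counts in all, and Mst1, the ligand of MST1R, had 4; these 3 genes were picked for mention after their values were seen. Mst1 and Mst1r thus both lay below 1 CPM in every library. All 3 genes of the vitamin K cycle were detected, the epoxide reductases Vkorc1 (17.6 ± 3.64 CPM per kb) and Vkorc1l1 (11.9 ± 0.591) and the carboxylase Ggcx (7.86 ± 1.17). All 3 were called and lowest in replicate 3, against 31.5% of all tested genes.

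Of 10 proteases and inhibitors that control the activation of HGF, 4 were detected. The plasminogen activators Plat (24.5 ± 4.35 CPM per kb) and Plau (21.3 ± 0.776), which are reported to cleave the HGF precursor, led, and Spint1, an inhibitor of HGF activator, stood at 0.945 ± 0.234 CPM per kb. The serine protease genes Hpn, Klkb1 and F12 were without any count, so a level of up to 0.103 CPM remains possible in replicate 2, the library with the fewest counts. The other undetected genes were Hgfac, which encodes HGF activator, St14 and Tmprss2, with 3, 2 and 3 counts in all. They were named after their values were seen. Of this list, 2 of 4 tested genes were called, both lowest in replicate 3, a lower share than the 65.7% called over all genes.

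The genes that process the receptors or sit beside them in the membrane were all detected. The 6 processing and shedding genes were led by Ncstn (44.5 ± 4.71 CPM per kb), a subunit of gamma-secretase, the sheddase Adam10 (40.9 ± 4.44) and the metalloprotease inhibitor Timp3 (25.1 ± 7.94). All 6 were called between libraries (65.7% of all genes were), 4 of them lowest in replicate 3 (31.5% of all genes). In that library Timp3 stood at 129 CPM against 240 and 243 CPM in replicates 1 and 2. The 8 membrane partners of MET were led by the integrin Itgb1 (591 ± 90.5 CPM per kb), the hyaluronan receptor Cd44 (128 ± 11.1) and the plexin Plxnb2 (84.9 ± 0.975). Of these 8, 7 were called, 6 of them lowest in replicate 3, against 65.7% and 31.5% of all tested genes.

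Downstream of the receptors, all 16 adaptors and effectors and all 10 negative regulators were detected. Akt1 (116 ± 12.3 CPM per kb), a kinase of the survival pathway, and the adaptors Shc1 (61.3 ± 7.02) and Crk (47.8 ± 2.30) led the first list. Gab1, the docking protein that couples MET to its effectors, was lowest of the 16 at 3.02 ± 0.494 CPM per kb and was picked for mention after its value was seen. The negative regulators were led by Lrig1 (39.4 ± 1.40), which lowers receptor levels, the CBL-binding adaptor Sh3kbp1 (29.4 ± 3.38) and the phosphatase Ptpn1 (16.2 ± 0.346). Of the adaptors and effectors, 13 were called, 7 lowest and 6 highest in replicate 3. Of the negative regulators, 8 were called, 5 lowest and 3 highest in replicate 3. Over all tested genes 65.7% were called, 31.5% lowest and 33.1% highest in replicate 3. The median deviation of replicate 3 from the mean was -0.007 on the log2 scale for the first list and -0.010 for the second, against -0.0001 over all tested genes.

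Phosphatidylserine is moved between the leaflets of the membrane by flippases and scramblases. All 5 exposure genes were detected, led by the flippase subunit Tmem30a (30.8 ± 2.39 CPM per kb), the scramblase Ano6 (26.3 ± 3.88) and the flippase Atp11a (22.2 ± 0.629). Of 15 other phosphatidylserine receptors and bridging molecules, 7 were detected (46.7%, against 46.6% of all genes), led by the integrin Itgb5 (113 ± 30.6), the endocytic receptor Lrp1 (91.8 ± 8.02) and Mfge8 (55.9 ± 2.23), the secreted bridge between phosphatidylserine and integrins. Adgrb1, a receptor for phosphatidylserine, had 0 counts in all libraries. All 6 genes of the engulfment machinery were detected, led by Rac1 (91.4 ± 4.46), Crk and Elmo2 (29.3 ± 3.57). Of these 3 lists, 5 of 5, 8 of 8 and 5 of 6 tested genes were called between libraries, against 65.7% of all tested genes. In replicate 3, 1, 5 and 3 of them were lowest (31.5% of all tested genes) and 3, 2 and 2 highest (33.1%).

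**Figure D5:**
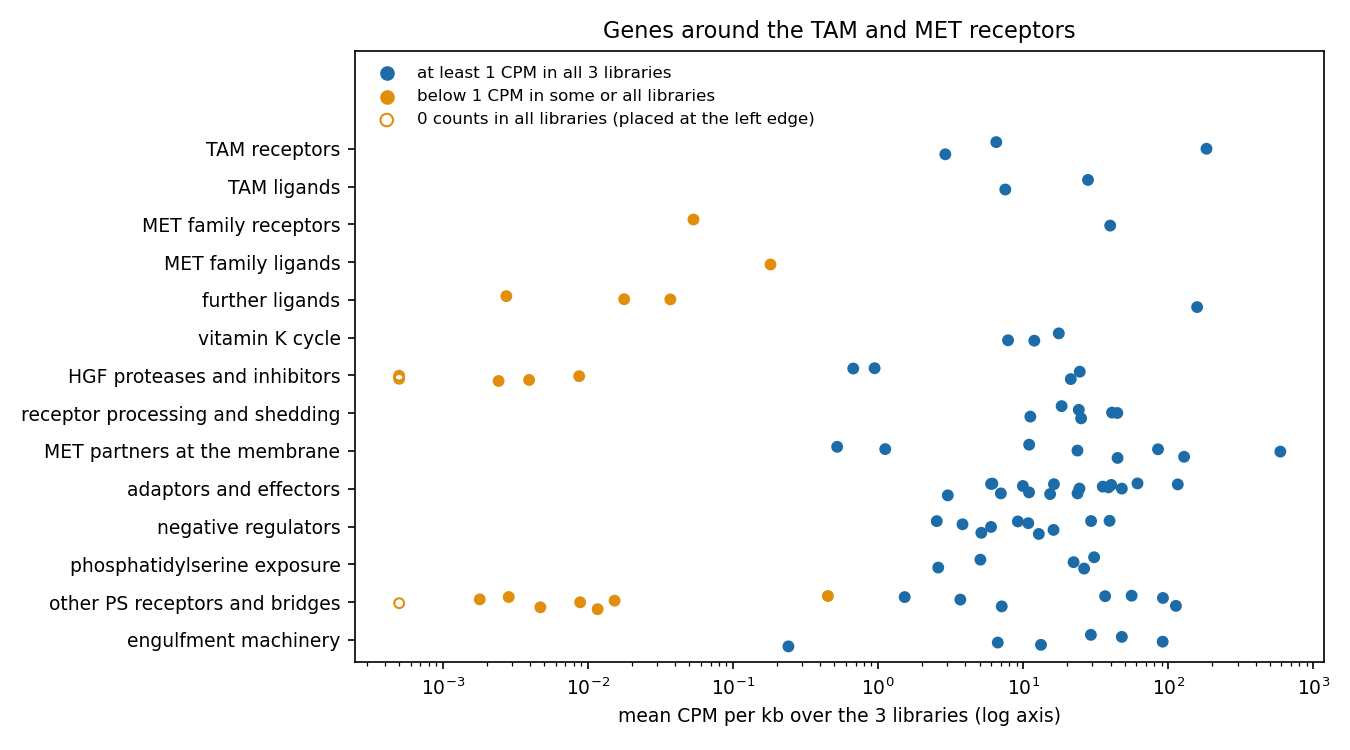
Mean CPM per kb over the 3 libraries (log axis) of each gene in the lists around the TAM and MET receptors, 1 point per gene, spread vertically within its list for visibility only. The lists downstream of the receptors hold detected genes only, and the further ligands, HGF proteases and other phosphatidylserine (PS) receptors hold members near 0.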

How the data were processed

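Each library has 1 deposited table of raw counts by gene symbol, with 24421 gene lines and 5 summary lines. The submitters' processing notes list mm10 as assembly, Bowtie2 2.2.4 and HTSeq, the last with no version. Options, strand setting and annotation are not given in the sources used here, so reads of a gene and of an overlapping partner cannot be told apart. Per the labels' protocols, 1 µg of total RNA went into each TruSeq library. Summary lines held 15.2%, 15.2% and 17.1% of reads in replicates 1, 2 and 3 and were left out.

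Symbols were matched to GENCODE M21 (GRCm38, the assembly mm10 names) for position and length: 23358 directly, 650 through RefSeq synonyms and 413, which held 0.748% of counts, not at all. Union exon lengths of that annotation may differ from the gene models behind the counts. CPM used the counts in genes as total. Ratios used CPM per kb with a pseudocount of 0.5 counts, so they are on the log2(count + 0.5) scale.

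With 1 group no test between conditions exists. Libraries were compared per gene with a chi-square test (2 degrees of freedom) on counts against TMM-scaled library sizes from edgeR 4.0.16, for every gene whose mean count reached 10, and p-values were adjusted by Benjamini-Hochberg over all of these (threshold 0.05). DESeq2 1.42.0 gave alternative size factors. Further tools were R 4.3.3, Python 3.11.15 with pandas 2.3.3, scipy 1.17.1 and numpy 2.4.6, and matplotlib 3.10.9 for figures, and the chi-square step was tested on simulated data. Limits for genes without counts stand for 3 counts.

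The members and lists were chosen with earlier results of these data known. Named genes are all members, the 3 detected genes of highest CPM per kb of every other list, genes at 0 counts where a list holds at most 4, the 6 leading receptor tyrosine kinases and those up to 2 ranks from a detected member, and the 4 genes nearest to Axl in level. The markers Dcn, Lum and Pecam1 were named after their values were seen. Alternatives covered library scaling, the count filter, gene length, pseudocount, detection threshold, left-out replicates and averaging of replicates 1 and 2.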

Additional observations from a re-analysis of the deposited data

How the results depend on the processing

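No paired analysis of conditions was possible because the series has 1 group. Under all alternatives run, each of the 8 pair ratios kept its direction and stayed larger than the spread between replicates. Of the alternative values of the 4 other pairs of neighbours in the order, 19 kept call and direction. Another 7 became larger than the spread, and 2 turned, the log2 ratio of Pros1 to Tyro3 at -0.0045 with the longest transcript and -0.44 without length correction. The chi-square calls depended on replicate 3. Leaving out 1 replicate gave 256 to 8191 called genes, against 8369 with all 3 libraries, and 0 to 5 called members, against 5. The low ends are the comparison of replicates 1 and 2. With DESeq2 size factors 8389 genes were called and with total counts 8386, and the called members numbered 5 in both. With a mean count of at least 1 the called members numbered 6 of 8 tested, since Mst1r entered the test (adjusted p = 0.0396). Over all genes 8433 of 15208 tested were called under this filter. Members detected numbered 7 at a threshold of 0.5 CPM and without replicate 3, as Hgf then passed, and 6 at 5 CPM. Depth limits Hgf and Mst1r, with 127 and 26 counts in all.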
